A study of Mus musculus with 4 samples.

Results

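The genes described here are 45 genes of insulin, mTOR and AMPK nutrient signalling, taken by gene symbol from a list. All 45 were found among the 17934 genes of the tables. They were measured in testis RNA of male C57BL/6 mice fed a western diet for 18 weeks, in 2 libraries of Tas1r3 KO mice and 2 libraries of WT mice. Both genotypes had the same diet, sex and strain, and no group on another diet was analysed here. Tas1r3 encodes a subunit that the sweet and the umami taste receptor share. The labels give neither the kind of Tas1r3 allele nor the ages, and do not state whether a genotype's 2 libraries are from different animals. All p-values therefore measure the spread between these libraries, which may be technical.

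Insulin and IGF receptors signal through receptor substrates and phosphoinositide 3-kinase (PI3 kinase) to AKT, which restrains the FOXO transcription factors and glycogen synthase kinase 3 and relieves the TSC brake on mTOR. The mTOR kinase drives growth when growth factors and amino acids are both present, and amino acid sensors act on it at the lysosome. AMPK, switched on by its upstream kinase LKB1 when energy is low, opposes mTOR. In the testis these pathways are known for roles in germ cell maintenance, Sertoli cell function and sperm motility.

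No nutrient signalling gene was called as changed in Tas1r3 KO testis by the test used. The same test did not call the targeted gene Tas1r3 itself (limma, adjusted p = 0.627), so a gene that was not called may still have changed. That test was limma on log2(CPM + 1) over the 17654 genes averaging 1 CPM or more (CPM, the counts per 1000000 assigned reads), with p-values adjusted by the Benjamini-Hochberg method and a gene called at an adjusted p under 0.05. It called 0 of the 45 genes, with adjusted p-values of 0.9502 to 0.999, and 1 of all genes tested (0.00566%). At an unadjusted p under 0.05 stood 3 of the 45 genes (6.67%), against 4.33% of all genes. The leucine sensor gene Sesn1 and the insulin receptor gene Insr were the higher ones in KO among these 3 (1.33% of all genes), and the kinase gene Mtor was the lower (3.01% of all genes).

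Both KO libraries lay on the same side of both WT libraries for 17 of the 45 genes (37.8%), and the same held for 34.3% of all genes tested. Both KO libraries were above both WT libraries in 5 of the genes (11.1%; all genes 15.1%) and below them in 12 (26.7%; all genes 19.2%). In 5 of the 17 genes the gap between the genotypes was under 1.67 CPM, which is 1 read in the shallowest library. The median log2 fold change, KO minus WT, was -0.02 over the 45 genes and -0.04 over all genes tested. The median size of the change without its sign was 0.23 over the 45 genes and 0.25 over all genes. The summed level of the 45 genes was 2089 and 1893 CPM in the KO libraries, against 2046 and 2029 CPM in the WT libraries.

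The precision was low for most of the genes. The 95% limma interval of the log2 fold change extended 0.30 to 1.59 to either side, with a median of 0.67, and lay wholly within -1 to 1 for 19 of the 45 genes. The difference between genotypes was larger than the gap between replicates in both genotypes for 13 of the genes and not for the other 32. The assigned reads estimated from the CPM of 1 read were 748591 and 597962 in the KO libraries, against 1719434 and 1807697 in the WT libraries. A median gene of the 45 rested on 16 and 14 estimated reads in KO, against 38 and 35 in WT. The targeted gene Tas1r3 (chromosome 4, 155943726 to 155947811, minus strand of mm39) stood at 1.34 and 0 CPM in the KO libraries, against 13.8 and 20.5 CPM in the WT libraries. Both KO libraries were far below both WT libraries, with a log2 fold change of -3.54 (SE 0.61; limma, adjusted p = 0.627). By limma it passed with the replicate number as a block (adjusted p = 0.00028), without KO replicate 1 (-4.16, adjusted p = 1.3e-07) and without KO replicate 2 (-2.93, adjusted p = 2.0e-05), and not under the other alternatives (adjusted p 0.281 to 1).

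Markers of testicular cell types were present in every library, with elongating spermatid markers at the highest sums. These were 25485 and 36609 CPM in KO, against 29962 and 29778 CPM in WT, so the KO libraries lay on both sides of the WT libraries. The sums of round spermatid, spermatocyte, Sertoli cell, endothelial, macrophage, red blood cell and adipocyte markers overlapped between genotypes as well. The sum of 7 spermatogonial markers was 147 and 148 CPM in KO, against 128 and 116 CPM in WT, though Sall4 was near 0 in both KO libraries, against 12.1 and 7.15 CPM in WT, and Gfra1 had 10.7 and 10.03 CPM in KO, against 13.2 and 11.7 CPM in WT. The sum of 6 Leydig cell markers was 1567 and 1597 CPM in KO, against 1709.9 and 1832 CPM in WT. Of it, Insl3 held 1234 and 1278 CPM in KO, against 1517 and 1464 CPM in WT, and each of the other 5 markers overlapped. The sum of 5 peritubular myoid markers was 85.7 and 86.5 CPM in KO, against 105 and 114 CPM in WT. Of these markers, Myh11, Tagln and Des were lower in both KO libraries. Cnn1 overlapped, and so did Acta2, the largest of them, with 45.6 and 54.0 CPM in KO, against 51.3 and 54.8 CPM in WT. No marker of these lists was called. The epididymal gene Crisp1 was at 40.7 CPM in WT replicate 1 and at 0 in the other 3 libraries, and 5 red blood cell markers summed to 35.8 and 53.9 CPM in KO, against 47.8 and 186 CPM in WT. The part of these cell types in the values below was not tested, and in bulk RNA fewer cells of a type and less RNA per cell cannot be told apart.

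**Figure D1:**
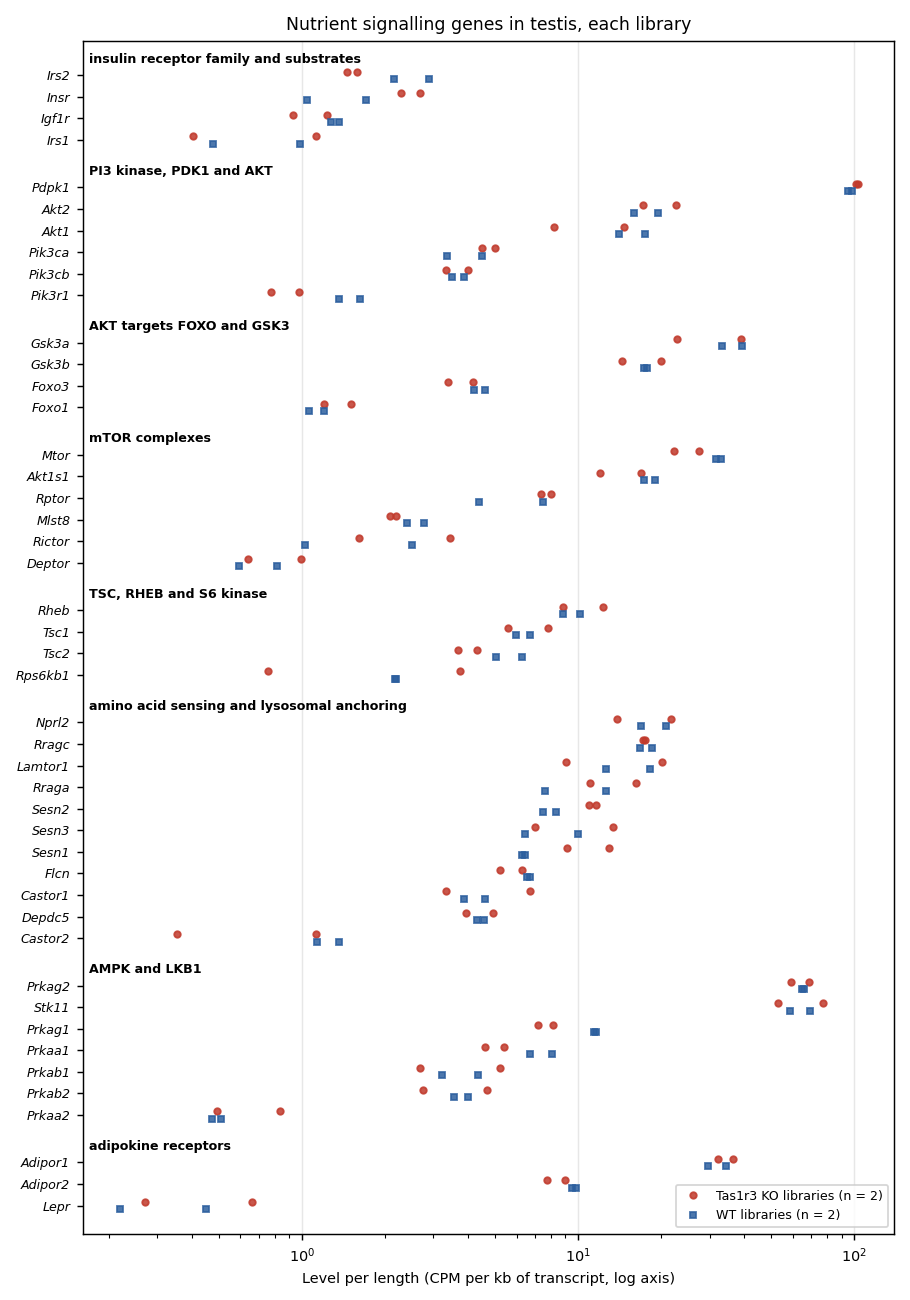
Level of each of the 45 genes in CPM per kb of transcript (log axis), with the 2 Tas1r3 KO libraries as red circles above the 2 WT libraries as blue squares, grouped by role. Levels run from a mean of 0.401 for Lepr to 99.4 for Pdpk1, and in CPM the genotypes overlap in 28 of the 45 genes.

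The genes differed far more from each other than between genotypes. Per length, with transcript values divided by transcript length and summed, the mean level over the 4 libraries ran from 0.401 CPM per kb for Lepr to 99.4 CPM per kb for Pdpk1, with a median of 6.19. The median of all genes tested was 5.23 CPM per kb, and 24 of the 45 genes were above it. The highest levels after Pdpk1 were those of Prkag2 at 64.5, Stk11 at 64.3, Gsk3a at 33.6, Adipor1 at 33.1 and Mtor at 28.5 CPM per kb. Prkag2 and Stk11 overlapped in level between libraries, and so did Gsk3a and Adipor1.

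Among the receptors, the insulin receptor gene was higher in both KO libraries and the IGF receptor gene was lower by less than 1 read. Insr (chromosome 8, 3200922 to 3329618, minus strand) had 21.4 and 25.03 CPM in the KO libraries, against 9.81 and 16.0 CPM in the WT libraries, so its lowest KO library was above its highest WT library. Its log2 fold change was 0.83 (SE 0.34, 95% interval 0.07 to 1.60; limma, adjusted p = 0.9502). It rested on estimated reads of 31 in KO and 46 in WT, and the depth-scaled ratio of these reads was 1.77 (95% exact interval 1.08 to 2.84). Such intervals add up the reads of a genotype and hold counting error alone, not the spread between libraries. They were computed for all 45 genes and are printed only for the 3 where they left out 1, Insr, Mtor and Sesn1. The share over all genes was not computed. Igf1r, the receptor for insulin-like growth factors, had 14.8 and 11.2 CPM in the KO libraries, against 16.4 and 15.3 CPM in the WT libraries, a gap under 1 read of a KO library. Its log2 fold change was -0.28, and 0.0303 after thinning all libraries to the depth of the shallowest.

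The substrates that carry the signal from these receptors were low transcripts. Irs2 (chromosome 8, 11034681 to 11058930, minus strand), the higher of the 2 substrate genes per length at 2.02 CPM per kb, had 10.8 and 9.89 CPM in the KO libraries, against 14.6 and 19.6 CPM in the WT libraries. Both KO libraries were below both WT libraries, with a log2 fold change of -0.66 (SE 0.34, 95% interval -1.44 to 0.12; limma, adjusted p = 0.9502). Irs1, the lower gene of the pair at 0.749 CPM per kb, had 10.3 and 3.71 CPM in the KO libraries, against 9.03 and 4.37 CPM in the WT libraries. Its libraries differed more within each genotype than between them.

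Pdpk1, which encodes the kinase PDK1 that phosphorylates AKT at the membrane, was the most abundant of the 45 genes per length. Pdpk1 (chromosome 17, 24292654 to 24369897, minus strand) had 269.8 and 256 CPM in the KO libraries, against 240.1 and 234 CPM in the WT libraries. All 4 libraries lay close together, both KO libraries slightly above both WT libraries. The log2 fold change was 0.15 (SE 0.13, 95% interval -0.15 to 0.45; limma, adjusted p = 0.9502), and its interval was the narrowest of the 45 genes.

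Pdpk1 RNA was assigned to 2 start sites 9.33 kb apart. Transcripts from the downstream start site, start site 2, had 165 and 159.9 CPM in the KO libraries, against 144 and 154 CPM in the WT libraries. The upstream start site had 105 and 96.0 CPM in KO, against 95.7 and 80.1 CPM in WT. Most of the downstream signal was a 1768-base transcript of 522 codons, at 86.2 and 86.7 CPM per kb in KO, against 81.4 and 87.1 CPM per kb in WT. The 250 bases before each start site, from RefSeq on GRCm38.p6, are shown because the 2 stretches differ in composition. Capitals mark the GC-box, GGGCGG or its other strand CCGCCC.
Pdpk1 start site 1, chr17:24150923-24151172, minus strand: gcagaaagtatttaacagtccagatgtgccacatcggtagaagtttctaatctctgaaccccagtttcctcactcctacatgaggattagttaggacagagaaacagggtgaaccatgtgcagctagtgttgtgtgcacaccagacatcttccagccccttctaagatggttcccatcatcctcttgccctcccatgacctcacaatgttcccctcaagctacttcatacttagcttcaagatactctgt
Pdpk1 start site 2, chr17:24141595-24141844, minus strand: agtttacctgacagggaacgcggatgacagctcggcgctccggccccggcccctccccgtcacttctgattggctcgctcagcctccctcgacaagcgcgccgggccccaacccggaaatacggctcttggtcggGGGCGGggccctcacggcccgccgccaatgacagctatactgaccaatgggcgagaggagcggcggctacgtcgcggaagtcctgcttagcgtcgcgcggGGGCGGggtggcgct
The stretch before the upstream site was 46.4% G and C and held 0 GC-boxes, while that before the downstream site was 69.6% G and C and held 2.

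The other members of the PI3 kinase and AKT step showed no common direction. Pik3r1, the p85-alpha regulatory subunit and the lowest of the step at 1.18 CPM per kb, had 5.36 and 6.76 CPM in the KO libraries, against 8.79 and 10.95 CPM in the WT libraries. Both KO libraries were below both WT libraries, on estimated reads of 8 in KO and 35 in WT (log2 fold change -0.62, 95% interval -1.58 to 0.34). The catalytic subunit gene Pik3ca averaged 33.3 ± 2.64 CPM in KO and 27.5 ± 5.64 CPM in WT, and its relative Pik3cb averaged 17.8 ± 2.28 CPM in KO and 17.9 ± 1.33 CPM in WT (SD, n = 2 each). Akt2, the AKT kinase best known from glucose handling, averaged 88.6 ± 16.3 CPM in KO and 77.9 ± 10.98 CPM in WT (SD, n = 2 each). Akt1, the AKT kinase best known from growth, had 38.0 and 21.9 CPM in the KO libraries, against 45.8 and 37.4 CPM in the WT libraries, so KO replicate 1 lay between the WT libraries and KO replicate 2 below them. The Akt1 log2 fold change was -0.50 with all libraries (limma, adjusted p = 0.9502), -0.89 without KO replicate 1 and -0.12 without KO replicate 2.

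Of the AKT targets, the GSK3 genes were abundant and the FOXO genes low. Gsk3a, whose kinase is known for a role in sperm motility in mice, was the highest per length, with 87.9 and 51.6 CPM in the KO libraries, against 74.9 and 89.0 CPM in the WT libraries. KO replicate 2 was far below the other 3 libraries, and the genotypes overlapped. Its log2 fold change was -0.27 with all libraries (limma, adjusted p = 0.9502), -0.65 without KO replicate 1 and 0.11 without KO replicate 2. Gsk3b, which shares most of its substrates with Gsk3a, averaged 143 ± 32.9 CPM in KO and 146 ± 2.53 CPM in WT (SD, n = 2 each). Foxo3, a transcription factor known for holding germ cells back from differentiation or growth, had 28.2 and 22.9 CPM in the KO libraries, against 28.6 and 31.3 CPM in the WT libraries. Foxo1, a factor of spermatogonial stem cells in mice and the lowest of these genes at 1.24 CPM per kb, had 6.69 and 8.36 CPM in the KO libraries, against 5.89 and 6.68 CPM in the WT libraries. In both FOXO genes the genotypes were apart by less than 1 read of a KO library, with Foxo3 lower and Foxo1 higher in KO.

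Mtor itself was the member of the mTOR complexes with the largest number of reads and was lower in both KO libraries. Mtor (chromosome 4, 148533039 to 148642143, plus strand), the catalytic subunit of both complexes, had 235 and 191 CPM in the KO libraries, against 271 and 283 CPM in the WT libraries. Both KO libraries were below both WT libraries, and mean CPM in KO was 0.770 times that in WT. The log2 fold change was -0.38 (SE 0.15, 95% interval -0.72 to -0.04; limma, adjusted p = 0.9502). The estimated reads were 290 in KO and 978 in WT, and their depth-scaled ratio was 0.777 (95% exact interval for counting error alone, 0.679 to 0.886). The log2 fold change was -0.53 without KO replicate 1 and -0.24 without KO replicate 2. Mtor lies 7.41 Mb from the targeted gene on chromosome 4, where 6 of the 45 genes are. The other 5 lie between 23.7 Mb (Sesn2) and 69.4 Mb (Rraga) from it, and of the 6 Mtor was lower, Sesn2 higher and the other 4 overlapped.

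Of the partners of mTOR, Akt1s1 and Mlst8 were lower in both KO libraries and the others overlapped. Akt1s1 (PRAS40), an inhibitory subunit of mTOR complex 1, had 19.9 and 25.1 CPM in the KO libraries, against 29.2 and 33.0 CPM in the WT libraries (log2 fold change -0.46, 95% interval -1.05 to 0.14). Mlst8, a subunit of both complexes, had 6.92 and 6.96 CPM in the KO libraries, against 7.57 and 8.74 CPM in the WT libraries, a gap under 1 read (log2 fold change -0.20, and 0.035 after thinning). Rptor, the scaffold of complex 1, averaged 54.0 ± 3.23 CPM in KO and 41.5 ± 15.4 CPM in WT, and Rictor, the scaffold of complex 2, averaged 23.6 ± 12.04 CPM in KO and 16.5 ± 9.82 CPM in WT (SD, n = 2 each). Deptor, an inhibitor of both complexes and the lowest of the group at 0.760 CPM per kb, had 5.38 and 8.36 CPM in the KO libraries, against 6.87 and 4.99 CPM in the WT libraries. Thus 3 of these 6 genes lay lower in both KO libraries (all genes 19.2%), 0 lay higher (all genes 15.1%) and 3 overlapped, and 0 were called.

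**Figure D2:**
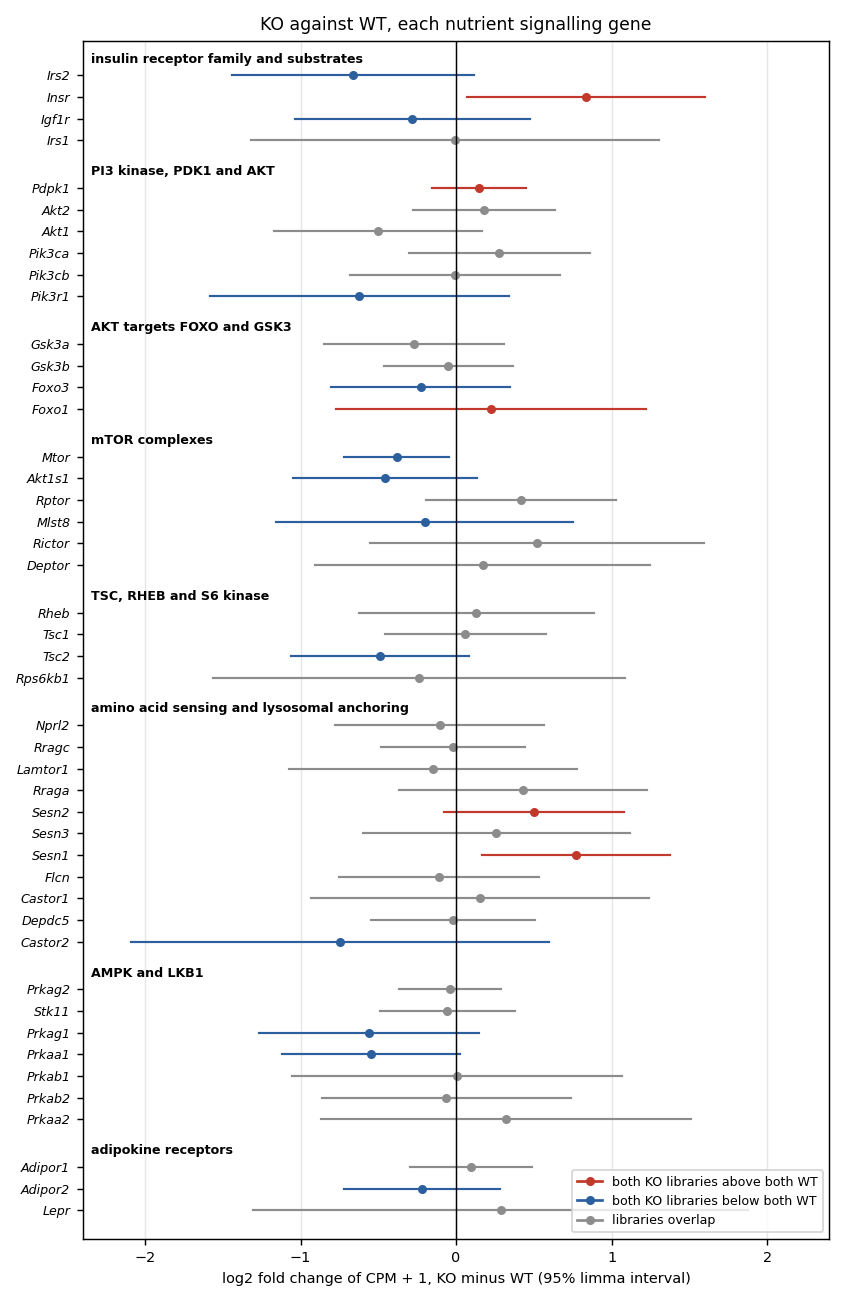
Log2 fold change of CPM + 1, KO minus WT, for each of the 45 genes (points) with 95% limma intervals (lines), grouped by role. Red marks the 5 genes with both KO libraries above both WT libraries, blue the 12 with both below and grey the 28 that overlap, and the intervals of 3 genes leave out 0.

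Next to mTOR in the pathway, Tsc2 was lower in both KO libraries, and Tsc1, Rheb and Rps6kb1 overlapped. Tsc2, which carries the activity that switches RHEB off, had 26.5 and 22.7 CPM in the KO libraries, against 31.4 and 38.6 CPM in the WT libraries, a gap larger than that between KO replicates and smaller than that between WT replicates (log2 fold change -0.49, SE 0.25, 95% interval -1.06 to 0.08). Tsc1, its stabilising partner, averaged 51.5 ± 12.2 CPM in KO and 48.8 ± 3.90 CPM in WT (SD, n = 2 each). Rheb, the small GTPase that activates mTOR and the highest of the step at 10.02 CPM per kb, had 18.7 and 13.4 CPM in the KO libraries, against 13.4 and 15.5 CPM in the WT libraries. Rps6kb1, the S6 kinase that mTOR phosphorylates and the lowest at 2.22 CPM per kb, had 18.7 and 4.22 CPM in the KO libraries, against 10.8 and 11.1 CPM in the WT libraries. Its KO libraries stood on both sides of the WT libraries, which nearly coincided.

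Among the amino acid sensors, Sesn1 and Sesn2 were higher in both KO libraries. Sesn1 (chromosome 10, 41686570 to 41784433, plus strand), a sestrin of the family that binds leucine and restrains mTOR, had 36.2 and 28.4 CPM in the KO libraries, against 18.7 and 18.2 CPM in the WT libraries. Its log2 fold change was 0.77 (SE 0.27, 95% interval 0.16 to 1.38), with the smallest unadjusted p of the 45 genes at 0.0185 and an adjusted p of 0.9502 by limma. The estimated reads were 44 in KO and 65 in WT, and their depth-scaled ratio was 1.77 (95% exact interval for counting error alone, 1.18 to 2.64). Sesn2 (chromosome 4, 132220118 to 132237768, minus strand), the leucine sensor best described in human cells, had 30.8 and 29.2 CPM in the KO libraries, against 22.1 and 19.8 CPM in the WT libraries (log2 fold change 0.50, SE 0.26, 95% interval -0.08 to 1.08; limma, adjusted p = 0.9502). In both genes the lowest KO library was above the highest WT library. Sesn3 averaged 22.0 ± 9.68 CPM in KO and 17.7 ± 5.45 CPM in WT (SD, n = 2 each), and its libraries overlapped.

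The reads of Sesn1 were divided between 2 start sites 76.9 kb apart in a way that differed from library to library. The upstream site had 14.1 and 26.1 CPM in KO, against 12.9 and 7.65 CPM in WT. The downstream site had 22.2 and 2.38 CPM in KO, against 5.75 and 10.5 CPM in WT. The gene sum separated the genotypes, while the downstream site did not. The 250 bases before the sites are given because both alternative starts lie in GC-rich sequence, with GC-boxes in capitals (RefSeq, GRCm38.p6).
Sesn1 start site 1, chr10:41810324-41810573, plus strand: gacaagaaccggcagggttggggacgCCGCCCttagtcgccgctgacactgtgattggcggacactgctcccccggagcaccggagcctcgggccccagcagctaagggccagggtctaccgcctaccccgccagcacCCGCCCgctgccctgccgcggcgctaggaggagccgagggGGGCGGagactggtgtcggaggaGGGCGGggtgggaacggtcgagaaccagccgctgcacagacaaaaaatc
Sesn1 start site 2, chr10:41887189-41887438, plus strand: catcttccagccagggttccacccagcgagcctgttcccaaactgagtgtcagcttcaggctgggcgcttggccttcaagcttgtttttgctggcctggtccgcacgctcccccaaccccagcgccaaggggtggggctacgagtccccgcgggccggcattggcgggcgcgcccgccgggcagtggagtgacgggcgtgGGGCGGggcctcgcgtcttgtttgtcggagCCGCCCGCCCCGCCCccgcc
They were 70.0% and 71.2% G and C, and each held 4 GC-boxes, counting overlapping matches.

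The arginine sensors were low. Castor2, which pairs with the arginine sensor CASTOR1 and was the lowest of the sensing genes at 0.994 CPM per kb, had 5.34 and 1.67 CPM in the KO libraries, against 6.47 and 5.37 CPM in the WT libraries, a gap under 1 read. Castor1, the arginine sensor itself, averaged 7.89 ± 3.76 CPM in KO and 6.66 ± 0.808 CPM in WT (SD, n = 2 each). Nprl2, a subunit of the GATOR1 complex that switches the RAG GTPases off and the highest of the sensing genes at 18.3 CPM per kb, had 20.2 and 31.8 CPM in the KO libraries, against 30.4 and 24.6 CPM in the WT libraries. Depdc5, a further GATOR1 subunit, averaged 34.9 ± 5.07 CPM in KO and 35.2 ± 1.47 CPM in WT (SD, n = 2 each).

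Of the genes that hold mTOR at the lysosome, Lamtor1, Rraga, Rragc and Flcn overlapped between genotypes. Lamtor1, the lipid-anchored Ragulator subunit, averaged 17.3 ± 9.32 CPM in KO and 18.2 ± 4.66 CPM in WT (SD, n = 2 each). The RAG GTPase genes averaged 21.9 ± 5.86 CPM in KO and 16.2 ± 5.73 CPM in WT for Rraga, and 45.2 ± 0.329 CPM in KO and 45.9 ± 3.32 CPM in WT for Rragc (SD, n = 2 each). Flcn, folliculin, which acts on RAGC and RAGD, averaged 20.7 ± 3.85 CPM in KO and 22.3 ± 1.34 CPM in WT (SD, n = 2 each).

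AMPK in these testes was read mostly from its gamma-2 subunit gene and from its upstream kinase gene. Prkag2, the nucleotide-binding gamma-2 subunit, had 213 and 189.9 CPM in the KO libraries, against 213 and 200.5 CPM in the WT libraries. Stk11 (chromosome 10, 79951629 to 79966514, plus strand), which encodes LKB1, had 175 and 123 CPM in the KO libraries, against 161 and 144 CPM in the WT libraries. Both genes overlapped between genotypes. The 95% interval of the log2 fold change was -0.36 to 0.29 for Prkag2 and -0.49 to 0.38 for Stk11.

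The transcript with the largest share of Stk11 in each library was that of the short form of LKB1, which is known from testis and from spermatids in rodents. The RefSeq transcript NM_001301853 of the short form had 127 and 81.8 CPM in the KO libraries, against 103 and 70.6 CPM in the WT libraries. That was 72.5% and 66.6% of the gene's CPM in KO, against 63.8% and 49.2% in WT. Per length it stood at 59.9 and 38.7 CPM per kb in KO, against 48.8 and 33.4 CPM per kb in WT. The long form NM_011492 stood at 13.3 and 5.63 CPM per kb in KO, against 7.98 and 16.2 CPM per kb in WT. The short form was above the long form in each library. In level the genotypes overlapped for both forms, while the short form's share was higher in both KO libraries, and the share was not tested.

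The 2 forms share 1118 coding bases from the start codon and then part. The coding ends are printed because they set the forms apart, from GENCODE M21 (GRCm38) on the plus strand of chromosome 10. The last 24 shared bases are in lower case, and the bases of each form's own end, with its stop codon, are in capitals.
Stk11 long form: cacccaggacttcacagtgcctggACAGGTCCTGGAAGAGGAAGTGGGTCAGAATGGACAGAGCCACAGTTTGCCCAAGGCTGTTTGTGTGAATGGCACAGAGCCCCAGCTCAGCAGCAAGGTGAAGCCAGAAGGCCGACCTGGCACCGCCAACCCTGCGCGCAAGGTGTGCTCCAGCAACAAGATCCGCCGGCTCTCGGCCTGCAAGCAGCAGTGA
Stk11 short form: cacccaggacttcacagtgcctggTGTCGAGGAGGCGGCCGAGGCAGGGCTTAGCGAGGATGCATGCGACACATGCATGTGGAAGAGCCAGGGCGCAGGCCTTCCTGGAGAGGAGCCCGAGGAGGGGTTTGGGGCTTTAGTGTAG
The own end is 193 bases in the long form of 436 codons and 121 bases in the short form of 412 codons.

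Prkag2 was assigned mainly to its most upstream start site. That site had 180.5 and 175 CPM in KO, against 190.1 and 161 CPM in WT, which was 84.7% and 92.4% of the gene in KO and 89.1% and 80.3% in WT. Start site 2, 105 kb downstream, had 0.0167 and 0.163 CPM in KO, against 12.3 and 13.2 CPM in WT. Start site 3, 192 kb downstream of the first, had 32.7 and 14.3 CPM in KO, against 10.9 and 26.3 CPM in WT. The transcript from start site 2 was singled out after its values were seen. Other genes of the 45 also had a start site near 0 in both KO libraries. Flcn start site 2 had 0.0984 and 0.0579 CPM in KO, against 10.1 and 13.7 CPM in WT. Akt1s1 start site 3 had 7.31 and 10.1 CPM in WT, and Pik3r1 start site 2 had 3.24 and 1.46 CPM in WT. The Pdpk1 transcript NM_011062 went the other way, with 12.6 and 6.53 CPM in KO, against 0.387 and 0.129 CPM in WT. Over all transcripts tested, limma called 0 of 28243 at an adjusted p under 0.05 (0.0%), and 0 of the 90 transcripts of the 45 genes that were tested. At an unadjusted p under 0.05 stood 9 of those 90, against 6.26% of all transcripts. The 250 bases before the 3 sites are shown for comparison (RefSeq, GRCm38.p6, GC-boxes in capitals).
Prkag2 start site 1, chr5:25100643-25100892, minus strand: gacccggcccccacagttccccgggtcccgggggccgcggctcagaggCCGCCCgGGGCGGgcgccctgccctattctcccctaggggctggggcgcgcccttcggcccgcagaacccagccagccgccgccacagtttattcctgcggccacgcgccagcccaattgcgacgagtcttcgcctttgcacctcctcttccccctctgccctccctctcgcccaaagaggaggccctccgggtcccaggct
Prkag2 start site 2, chr5:24995754-24996003, minus strand: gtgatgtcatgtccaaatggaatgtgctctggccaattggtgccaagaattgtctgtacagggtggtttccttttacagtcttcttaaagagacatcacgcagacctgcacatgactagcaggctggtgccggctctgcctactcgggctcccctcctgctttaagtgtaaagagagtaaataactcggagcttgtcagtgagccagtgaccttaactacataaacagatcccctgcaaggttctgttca
Prkag2 start site 3, chr5:24908510-24908759, minus strand: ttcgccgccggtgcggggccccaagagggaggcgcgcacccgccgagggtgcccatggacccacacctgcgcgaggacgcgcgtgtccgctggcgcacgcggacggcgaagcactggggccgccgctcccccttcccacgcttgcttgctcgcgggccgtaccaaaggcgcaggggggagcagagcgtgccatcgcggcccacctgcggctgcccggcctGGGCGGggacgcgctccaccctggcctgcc
The stretches before sites 1 and 3 were 73.2% and 77.2% G and C and held 2 and 1 GC-boxes, and that before site 2 was 48.4% G and C and held 0.

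**Figure D3:**
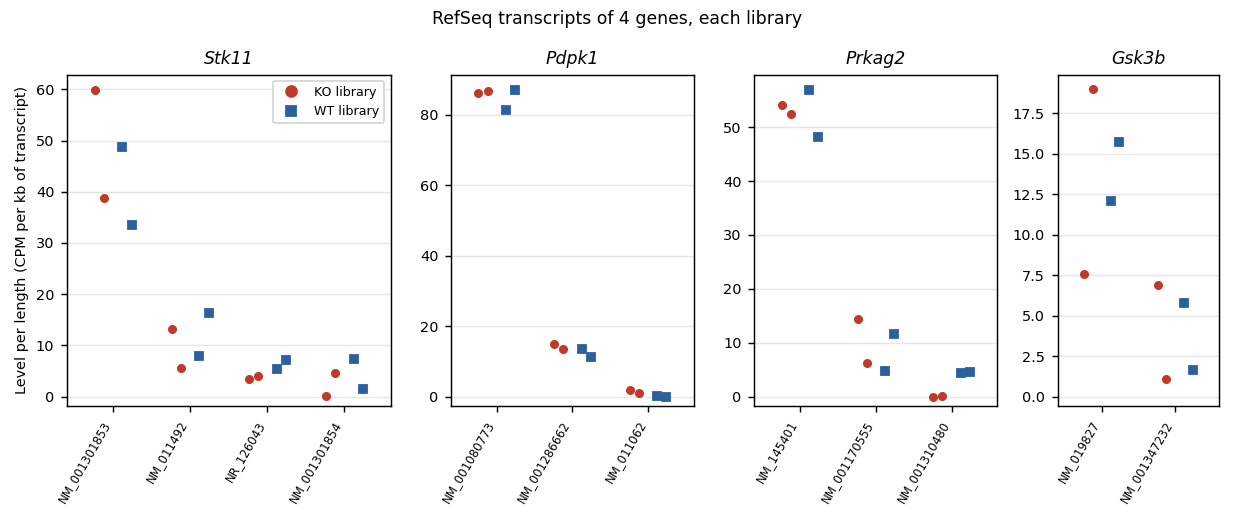
CPM per kb of each RefSeq transcript of Stk11, Pdpk1, Prkag2 and Gsk3b, with KO libraries as red circles left of WT libraries as blue squares. The short Stk11 form NM_001301853 is above the other Stk11 transcripts in every library, and the 2 Gsk3b transcripts vary in opposite directions between libraries of the same genotype.

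The catalytic alpha-1 and the regulatory gamma-1 subunit genes of AMPK were lower in both KO libraries. Prkaa1 (chromosome 15, 5173343 to 5211381, plus strand), catalytic subunit alpha-1, had 21.4 and 24.8 CPM in the KO libraries, against 37.3 and 31.1 CPM in the WT libraries (log2 fold change -0.55, SE 0.25, 95% interval -1.12 to 0.03; limma, adjusted p = 0.9502). Prkag1 (chromosome 15, 98710678 to 98729390, minus strand), gamma-1, had 13.4 and 11.7 CPM in the KO libraries, against 19.1 and 18.8 CPM in the WT libraries (log2 fold change -0.56, SE 0.31, 95% interval -1.27 to 0.15). The gap between the genotypes was larger than that between replicates in Prkag1, and about as large as that between WT replicates in Prkaa1. Both intervals include 0. Prkaa2, catalytic subunit alpha-2 and the lowest AMPK gene at 0.578 CPM per kb, had 4.01 and 6.77 CPM in the KO libraries, against 4.13 and 3.87 CPM in the WT libraries. The beta subunit genes averaged 8.10 ± 3.66 CPM in KO and 7.77 ± 1.67 CPM in WT for Prkab1, and 15.9 ± 5.89 CPM in KO and 16.1 ± 1.37 CPM in WT for Prkab2 (SD, n = 2 each), with overlap in both.

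Of the adipokine receptors, those for adiponectin were well covered and that for leptin was near the limit of detection. Adipor1, the highest per length, had 101 and 117 CPM in the KO libraries, against 93.8 and 110.4 CPM in the WT libraries. Adipor2 had 36.1 and 31.8 CPM in the KO libraries, against 40.3 and 38.9 CPM in the WT libraries, with both KO libraries below both WT libraries (log2 fold change -0.22, 95% interval -0.72 to 0.28). Lepr, the leptin receptor gene and the lowest of the 45 per length, had 1.36 and 3.34 CPM in the KO libraries, against 2.27 and 1.11 CPM in the WT libraries, on estimated reads of 3 in KO and 6 in WT. A difference in Lepr was not detectable at this depth, its interval being -1.30 to 1.88.

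Family members were also set against each other within a library, which removes what both genes share. In each of 14 pairs the log2 ratio of CPM + 1 was compared over the 4 libraries. The genotypes did not overlap in 8 pairs. The share over other pairs of genes was not computed, and the 34.3% of single genes that did not overlap is no measure for ratios. Apart from Akt1 to Akt2, each of these pairs holds a gene whose own libraries did not overlap, so the ratios partly repeat those values. The exact two-sided permutation test used for the ratios cannot give a p below 0.333 with 2 against 2 libraries, so it called none. The log2 ratio of Insr to Igf1r was 0.50 and 1.10 in KO, against -0.68 and 0.06 in WT. That of Akt1 to Akt2 was -1.37 and -1.77 in KO, against -0.60 and -1.18 in WT. The ratio was higher in both KO libraries for the first pair and lower for the second.

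Of the AMPK pairs, the alpha and the gamma pair were apart as well. The log2 ratio of Prkaa1 to Prkaa2 was 2.16 and 1.73 in KO, against 2.90 and 2.72 in WT. That of Prkag1 to Prkag2 was -3.90 and -3.91 in KO, against -3.42 and -3.35 in WT. The ratio was lower in both KO libraries for both pairs, and the beta pair Prkab1 to Prkab2 overlapped. Prkaa2 rested on estimated reads of 7 in KO and 14 in WT. The remaining pairs that did not overlap were Foxo1 to Foxo3, Tsc1 to Tsc2, Sesn1 to Sesn2 and Castor1 to Castor2, with KO minus WT differences of 0.45, 0.55, 0.27 and 0.90. Castor2 rested on estimated reads of 5 in KO and 21 in WT. No ratio was computed after thinning.

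**Figure D4:**
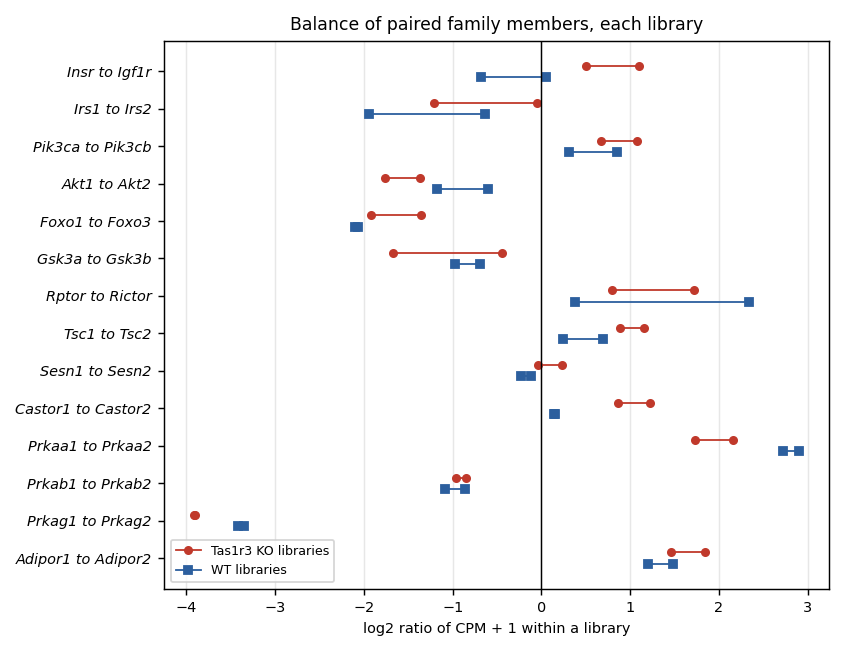
Log2 ratio of CPM + 1 between 14 pairs of family members within each library, with KO libraries as red circles above WT libraries as blue squares and a line joining the replicates. The genotypes are apart in 8 pairs, among them Insr to Igf1r and Prkaa1 to Prkaa2, and the share over other pairs of genes was not computed. Prkaa2 rests on estimated reads of 7 in KO and 14 in WT.

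The division of reads among transcripts of 1 gene differed widely between libraries. Of the 45 genes, 23 had several RefSeq transcripts. The share of a transcript ranged over more than 25 percentage points between libraries in 17 of these 23, with a median largest range of 42.9 points. In Akt1, for example, the upstream start site took 70.4% and 6.38% of the gene in KO, against 56.7% and 27.8% in WT. The replicates of each genotype were further apart than the genotype means. Stk11, at 23.4 points, Prkag2, at 12.1 points, and Pdpk1, at 9.28 points, were among the steadier genes. For Insr the deposited split was the same in every library, 45.3% to 54.7%, within 0.000128 points. The 2 Insr forms, which differ by a small exon of the receptor's alpha subunit, were therefore not told apart by these values.

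Promoter sequence was found in the RefSeq table for 43 of the 45 genes, Insr and Deptor being the others, with 54 start sites in all. In the 250 bases before each start site the median G and C content was 62.4%, against 52.4% over the 32851 promoters of the table. Motifs were searched on both strands. The GC-box (GGGCGG) was present in 32 of the 54 promoters (59.3%), against 32.7% of all promoters. The E-box (CACGTG) was present in 5 (9.26%), against 6.02%, and the TATA motif (TATAAA) in 2 (3.70%), against 12.4%. The FOXO motif (GTAAACA) was present in 2 (3.70%), those of Akt1 start site 1 and Adipor2, against 3.17%, and the CRE (TGACGTCA) in 1 (1.85%), that of Flcn, against 1.55%. These are matches of letters only and say nothing of binding.

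Other genes of the same pathways were taken from lists of 120 genes, of which 115 were in the tables and 114 were tested. By limma 0 were called, with 6 at an unadjusted p under 0.05 (all genes 4.33%), and their median log2 fold change was -0.05, against -0.04 over all genes tested. Both KO libraries were above both WT libraries in 16 of the 114 (all genes 15.1%) and below in 28 (all genes 19.2%). Among 22 other genes of the mTOR complexes and mTOR targets, the median was -0.28, with 16 negative and 6 positive values (55.1% of all genes were negative), 9 genes lower in both KO libraries (all genes 19.2%) and 1 higher (all genes 15.1%). Eif4ebp2, a translation repressor that mTOR phosphorylates, had 6.68 and 3.98 CPM in the KO libraries, against 22.0 and 18.1 CPM in the WT libraries, on estimated reads of 7 in KO and 71 in WT (log2 fold change -1.76, SE 0.40; limma, adjusted p = 0.9502). Prr5, a subunit of mTOR complex 2, had 4.01 and 7.13 CPM in the KO libraries, against 17.4 and 9.59 CPM in the WT libraries. Tfe3, a lysosomal gene regulator that mTOR keeps out of the nucleus, had 17.8 and 15.3 CPM in the KO libraries, against 23.9 and 29.2 CPM in the WT libraries. In all 3 genes both KO libraries were below both WT libraries. Eif4ebp2 passed without KO replicate 1 (-2.07; limma, adjusted p = 0.00032) and without KO replicate 2 (-1.45; limma, adjusted p = 0.0134), where 954 and 413 of all genes passed as well. It did not pass without either WT library (adjusted p = 1) or with the replicate block (adjusted p = 0.094).

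Of 24 other genes of amino acid and lysosomal sensing, 4 were higher (all genes 15.1%) and 4 lower (all genes 19.2%) in both KO libraries, with a median of 0.05. Lamtor2, the Ragulator subunit that partners LAMTOR3, had 6.68 and 1.38 CPM in the KO libraries, against 11.4 and 14.3 CPM in the WT libraries, on estimated reads of 6 in KO and 46 in WT. Rragd, the GTPase related to Rragc, had 16.0 and 23.4 CPM in the KO libraries, against 10.3 and 11.5 CPM in the WT libraries, and Fnip2, a folliculin partner, had 13.8 and 8.36 CPM in the KO libraries, against 6.57 and 5.53 CPM in the WT libraries. Lamtor2 was thus lower and the other 2 genes higher in both KO libraries. The log2 fold change of Lamtor2 was -1.69 with all libraries (limma, adjusted p = 0.9502) and -2.53 without KO replicate 1.

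Of 30 other genes of insulin and IGF signalling, 6 were higher (all genes 15.1%) and 6 lower (all genes 19.2%) in both KO libraries, with a median of -0.08. Sgk1, a kinase related to AKT, had 9.10 and 9.76 CPM in the KO libraries, against 4.80 and 3.64 CPM in the WT libraries. Pik3r3, a regulatory subunit of PI3 kinase, had 66.3 and 78.6 CPM in the KO libraries, against 55.1 and 58.6 CPM in the WT libraries. The KO libraries were the higher ones in both genes.

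Of 29 other genes of AMPK and LKB1 signalling, 2 were higher (all genes 15.1%) and 8 lower (all genes 19.2%) in both KO libraries, with a median of 0.00. Brsk1, an AMPK-related kinase that LKB1 activates, had 62.6 and 56.7 CPM in the KO libraries, against 78.1 and 81.9 CPM in the WT libraries. Crtc2, a coactivator that AMPK-related kinases keep in the cytoplasm, had 10.7 and 10.7 CPM in the KO libraries, against 21.5 and 13.2 CPM in the WT libraries, and Tbc1d4, a GTPase-activating protein for RAB proteins that AKT phosphorylates, had 6.04 and 3.45 CPM in the KO libraries, against 8.97 and 8.26 CPM in the WT libraries. The KO libraries were the lower ones in these 3 genes. Of 9 other genes of leptin and adiponectin signalling, 3 were higher (all genes 15.1%) and 1 lower (all genes 19.2%). Appl1, an adaptor of the adiponectin receptors, had 21.4 and 29.4 CPM in the KO libraries, against 19.2 and 15.5 CPM in the WT libraries, Cdh13, an adiponectin-binding cadherin, had 11.1 and 10.7 CPM in the KO libraries, against 8.12 and 8.04 CPM in the WT libraries, and Leprot, which shares its locus with Lepr, had 1.80 and 15.1 CPM in the KO libraries, against 12.9 and 10.2 CPM in the WT libraries. Leprot was at the level of WT in KO replicate 2 and far below it in KO replicate 1. Its log2 fold change was -0.90 with all libraries (limma, adjusted p = 0.9502) and -2.16 without KO replicate 2.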

How the data were processed

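Total RNA of testis was extracted with an RNAqueous kit and made into libraries with the Ion Total RNA-Seq Kit, per the labels' protocols. The submitters' processing notes name STAR, Partek and the build mm39, without their roles. The authors deposited CPM values for 29342 RefSeq transcripts. Each deposited column sums to 1000000, from which the unit was inferred. Samples were grouped by the labels' genotype.

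Transcript CPM were summed per symbol into 17934 genes, with 10 symbols on several chromosomes kept apart. Levels per kb sum each transcript's CPM over its length. The commonest low values were multiples of 1.34 and 1.67 CPM in KO, against 0.582 and 0.553 CPM in WT, taken as the CPM of 1 read, and estimated reads are CPM divided by this step. Whole reads, within 0.01, were found for 20.3% to 48.8% of genes, so no count model was fitted, and other values were fractions of a read. The 2 libraries of each genotype differed beyond sampling noise. The genotypes were compared, KO minus WT, in limma 3.58.1 (R 4.3.3) after a log2(CPM + 1) transform and with the trend option, over genes averaging 1 CPM or more. A fold change on this scale understates the change of low genes. The procedure was tested on simulated data with large changes in well-covered genes only, which does not speak for small changes or low genes. The alternatives were quantile normalization, scaling by TMM (trimmed mean of M values), pseudocounts of 0.1 and 5 CPM, other filters, no trend, a replicate block, thinning of the estimated reads to the shallowest library and each library left out.

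The 45 genes, the pathway lists and the markers were chosen with earlier results of these data known. All 45 genes are named, with values per library for those whose genotypes do not overlap and for the highest and lowest of each role per length. Of each pathway list up to 3 genes averaging 5 CPM or more are named, by smallest unadjusted p, and 1 gene that this rule names is not reported here. Values of Akt1 and of further genes and transcripts were added after they were seen. Coordinates are those of the tables, and sequences are from RefSeq (GRCm38.p6) and GENCODE M21. Where a gene had several start sites, promoters were assigned to them by equal distances between the sites, and no coordinates were converted. For Akt1s1, Flcn, Adipor2 and Lepr the start sites did not match, so their promoters are not tied to a particular start site. Figures were drawn with matplotlib 3.10.9.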

Additional observations from a re-analysis of the deposited data

How the results depend on the processing

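Of the 45 genes, 0 were called under the stated settings and under 12 of the 13 alternatives, and 3 (Mtor, Akt1 and Gsk3a) were called without KO replicate 1, so the count without a library ran from 0 to 3. The count over all genes was 1, and it was 0 with a pseudocount of 0.1 CPM, with no mean-variance trend and after thinning, with 633, 1041 and 1003 genes at an unadjusted p under 0.05. It was 954 without KO replicate 1, 413 without KO replicate 2 and 0 without either WT library (332 and 344 genes at an unadjusted p under 0.05). A single KO library is then assumed to vary like the WT libraries. Transcripts called were 0 under each alternative run, and thinning, TMM factors and quantile normalization were planned for genes only. The labels do not say whether the library numbers pair the samples. The correlation of the deviations of same-numbered libraries was -0.00585, which cannot settle whether they are paired. With the replicate number as a block 24 genes were called, of which 0 were among the 45.

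Of 582 values of the 45 genes under alternatives, 523 kept direction and side of the threshold, 3 passed it as named above and 56 changed sign, 38 of them with a library left out. The cause was not tested. With other filters, no trend or the replicate block the log2 fold change itself stays the same by construction, so its sign could not change there. The thinned values come from a single random draw of estimated reads rounded to whole numbers, and another draw would give other values. Thinning changed the sign in 13 genes, with log2 fold changes of 0.035 (Mlst8), -0.35 (Deptor), -0.19 (Tsc1), -0.11 (Rheb), -0.18 (Castor1), 0.0303 (Igf1r), 0.0256 (Irs1), -0.033 (Akt2), -0.41 (Prkaa2), 1.8e-05 (Prkab2), 0.0151 (Lamtor1), 0.14 (Flcn) and 0.17 (Depdc5). Irs1 was also 0.0114 with a pseudocount of 5 CPM, 0.0038 with TMM factors and 0.0551 with quantile normalization. Pik3cb was 0.0032 with TMM factors, and Prkab1 was -0.00074 with a pseudocount of 0.1 CPM.

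With each library left out in turn, the sign changed in 23 of the 45 genes and in Leprot. The log2 fold changes ran from -0.0848 to 1.13 (Rictor), -0.11 to 0.45 (Deptor), -0.18 to 0.30 (Tsc1), -0.10 to 0.36 (Rheb), -1.20 to 0.72 (Rps6kb1), -0.19 to 0.70 (Sesn3), -0.29 to 0.60 (Castor1), -0.64 to 0.63 (Irs1), -0.13 to 0.12 (Pik3cb), -0.0092 to 0.36 (Akt2), -0.65 to 0.11 (Gsk3a), -0.28 to 0.19 (Gsk3b), -0.42 to 0.43 (Prkab1), -0.43 to 0.30 (Prkab2), -0.12 to 0.0439 (Prkag2), -0.31 to 0.19 (Stk11), -0.69 to 0.40 (Lamtor1), -0.0923 to 0.0521 (Rragc), -0.29 to 0.0696 (Flcn), -0.16 to 0.13 (Depdc5), -0.42 to 0.21 (Nprl2), -0.0211 to 0.21 (Adipor1), -0.15 to 0.73 (Lepr) and -2.16 to 0.36 (Leprot). The range was -0.53 to -0.24 for Mtor, 0.60 to 0.94 for Sesn1 and 0.51 to 1.16 for Insr, none of which changed sign under any alternative. Castor2, Prkaa2 and Lepr have no value with a filter of 5 CPM. Of 84 alternative values of the family ratios, chosen after seeing the data, 2 moved by more than the spread between replicates. Leaving out a library could not move a ratio beyond that spread by construction, so only the pseudocounts could. With a pseudocount of 5 CPM the ratio differences were 0.51 for Castor1 to Castor2 and -0.41 for Prkag1 to Prkag2. Depth limits what can be seen: 10 of the 45 genes averaged under 10 CPM.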
